A study of Homo sapiens with 6 samples.

Results

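The genes described here encode the proteins of the mitochondrial ribosome. They were taken by symbol from the annotation of the array's probes, as MRPL (large subunit) or MRPS (small subunit) followed by a number. Of 80 symbols that matched, 4 were left out: the pseudogenes MRPS31P5 and MRPL42P5 and the antisense RNAs MRPL20-AS1 and MRPL23-AS1. The remaining 76 genes, 48 of the large and 28 of the small subunit, were read with 110 probes and stood among 12111 genes tested. MRPL27 and MRPS36 were not analysed here.

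RNA was measured on Illumina bead arrays in LoVo, a long-established human line derived from a colorectal adenocarcinoma. LGR5, a receptor for the Wnt-enhancing R-spondins, was the target of a short hairpin RNA delivered by lentivirus into stably infected lines. The 3 lines were shLGR5-1 and shLGR5-2, which carried different hairpins against LGR5, and shCTL, which carried the pLKO.1 vector as a non-targeting control. All 3 were grown with puromycin at 2 µg/ml, the drug that selects infected cells, and each was represented by 2 arrays. A line is the product of 1 infection as far as the labels say, so hairpin, infection and selection cannot be told apart. The labels do not state whether the 2 arrays of a line stem from different cultures, and the p-values therefore cover only the spread among these arrays, possibly a technical one.

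Mitochondrial ribosomes translate the few proteins encoded by mitochondrial DNA, all of them subunits of the oxidative phosphorylation complexes, while every protein of the ribosome itself is made in the cytosol from a nuclear gene and imported. Part of the set descends from bacterial ribosomal proteins and the rest was added in mitochondria. The small subunit holds the messenger RNA and decodes it, and the large subunit joins the amino acids and is anchored at the inner membrane, where its products are inserted.

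Values are the authors' normalized, background-subtracted intensities. Fold changes and standard errors (SE) are differences on the log2(intensity + 16) scale from limma's fit over all genes, with Benjamini-Hochberg adjusted p. A gene is called, and said to have risen or fallen, at an adjusted p below 0.05. A threshold of 16.5 separated signal from noise, and 20641 to 20705 of 47323 probes lay above it on each array. All 76 genes lay above it on all 6 arrays with their brightest probe, which stands for the gene below. The markers of colorectal epithelium were measured for 8 of 8 genes, but VIL1 and CEACAM5 lay below the threshold under shLGR5-2. No endothelial or neural marker was kept by the filter on dim probes, and 2 of 6 fibroblast and 3 of 6 leukocyte markers were. LGR5 had intensities of -1.1 and 7 under shLGR5-1, 12.5 and 19.2 under shLGR5-2, and 44.4 and 49.2 in shCTL. It was thus below the threshold on both shLGR5-1 arrays and on 1 of 2 shLGR5-2 arrays. With the dim group set at the threshold it was at least 2.84-fold lower under shLGR5-1 than in shCTL (adjusted p = 0.00167). On the log2 scale the fit gave -0.86 there with an offset of 50 and -4.14 with values floored at 1. Under shLGR5-2 the log2 fold change was -0.99 (adjusted p = 0.0197), and that call was lost when any shLGR5-2 or shCTL array was left out (adjusted p 0.0508 to 0.107).

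The promoters of 5 genes that carry the contrasts below are shown first. MRPL17 rose with both hairpins, MRPS22 and MRPS10 had the largest falls under shLGR5-1, and MRPS24 and MRPL46 rose with shLGR5-1 and fell with shLGR5-2. Each window runs from 250 bases before to 50 bases after the start of the gene in RefSeq (assembly GRCh38.p14), written 5′ to 3′ on the gene's own strand. They lie at chr11:6683291-6683590 on the minus strand for MRPL17, chr3:139343744-139344043 on the plus strand for MRPS22, chr6:42217812-42218111 on the minus strand for MRPS10, chr7:43869468-43869767 on the minus strand for MRPS24, and chr15:88467339-88467638 on the minus strand for MRPL46. Capitals mark matches on either strand to CCGGAAG, a word bound by ETS factors such as GABPA, to CGCATGCG, the core bound by NRF1, to GATGGCGG, bound by YY1, and to CACGTG, the E-box bound by MYC.
MRPL17: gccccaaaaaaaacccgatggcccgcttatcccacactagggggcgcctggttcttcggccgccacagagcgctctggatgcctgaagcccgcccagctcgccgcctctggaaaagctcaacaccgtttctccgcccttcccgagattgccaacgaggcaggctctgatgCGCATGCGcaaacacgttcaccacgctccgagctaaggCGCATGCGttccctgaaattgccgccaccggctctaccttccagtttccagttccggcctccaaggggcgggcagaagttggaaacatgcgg
MRPS22: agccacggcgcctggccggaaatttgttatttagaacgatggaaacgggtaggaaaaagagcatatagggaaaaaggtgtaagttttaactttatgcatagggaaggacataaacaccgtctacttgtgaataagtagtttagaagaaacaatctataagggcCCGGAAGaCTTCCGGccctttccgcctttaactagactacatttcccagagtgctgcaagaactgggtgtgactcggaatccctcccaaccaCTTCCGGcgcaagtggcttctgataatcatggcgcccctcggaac
MRPS10: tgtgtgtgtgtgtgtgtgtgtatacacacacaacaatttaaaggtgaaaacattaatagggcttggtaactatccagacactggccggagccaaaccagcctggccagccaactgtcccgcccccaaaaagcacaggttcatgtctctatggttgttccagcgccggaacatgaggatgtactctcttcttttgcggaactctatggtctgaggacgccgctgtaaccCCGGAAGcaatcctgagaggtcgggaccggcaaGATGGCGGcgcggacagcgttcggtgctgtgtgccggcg
MRPS24: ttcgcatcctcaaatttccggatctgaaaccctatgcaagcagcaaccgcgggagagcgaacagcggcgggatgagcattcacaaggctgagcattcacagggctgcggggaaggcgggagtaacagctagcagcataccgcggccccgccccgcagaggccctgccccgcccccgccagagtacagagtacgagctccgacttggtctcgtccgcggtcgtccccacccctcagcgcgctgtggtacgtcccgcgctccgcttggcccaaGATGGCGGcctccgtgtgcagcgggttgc
MRPL46: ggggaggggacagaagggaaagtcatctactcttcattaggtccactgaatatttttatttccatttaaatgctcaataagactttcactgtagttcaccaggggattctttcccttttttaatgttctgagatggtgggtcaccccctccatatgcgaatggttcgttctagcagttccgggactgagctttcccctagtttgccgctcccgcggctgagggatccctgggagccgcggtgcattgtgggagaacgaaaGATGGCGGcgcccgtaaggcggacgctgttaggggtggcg
The MRPL17 window holds the NRF1 word at positions 171 and 209 and none of the others. MRPS22 holds the ETS word at positions 164, 172 and 256. MRPS10 holds the ETS word at position 229 and the YY1 word at position 262, while MRPS24 and MRPL46 hold only the YY1 word, at positions 272 and 261. The MRPL46 window shares 181 bases with that of MRPS11, a small-subunit gene that starts in the opposite direction.

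Under shLGR5-1 more mitochondrial ribosomal protein genes were called higher than lower, a balance that moved when the trend with gene length and chromosome was removed. Of the 76 genes, 45 rose (59.2%), where 40.3% of all genes tested rose, and 17 fell (22.4%), where 31.5% of all genes fell. The median log2 fold change was 0.62 over the 76 genes and 0.28 over all genes tested, a difference of 0.35, but after the trend with gene length and chromosome was removed the 2 medians were 0.14 and 0.23, so the members' median then lay below that of all genes. With that trend removed 32 members were higher and 20 lower, where 38.9% of all genes were higher and 29% lower. By at least 2-fold, 16 members rose and 10 fell (21.1% and 13.2%), where 23.5% and 25.9% of all genes did. The arrays of shLGR5-1 lay above both shCTL arrays for 50 members, below both for 22, and overlapped them for 4, while over all genes they lay above for 49.6% and below for 37.2%.

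**Figure D1:**
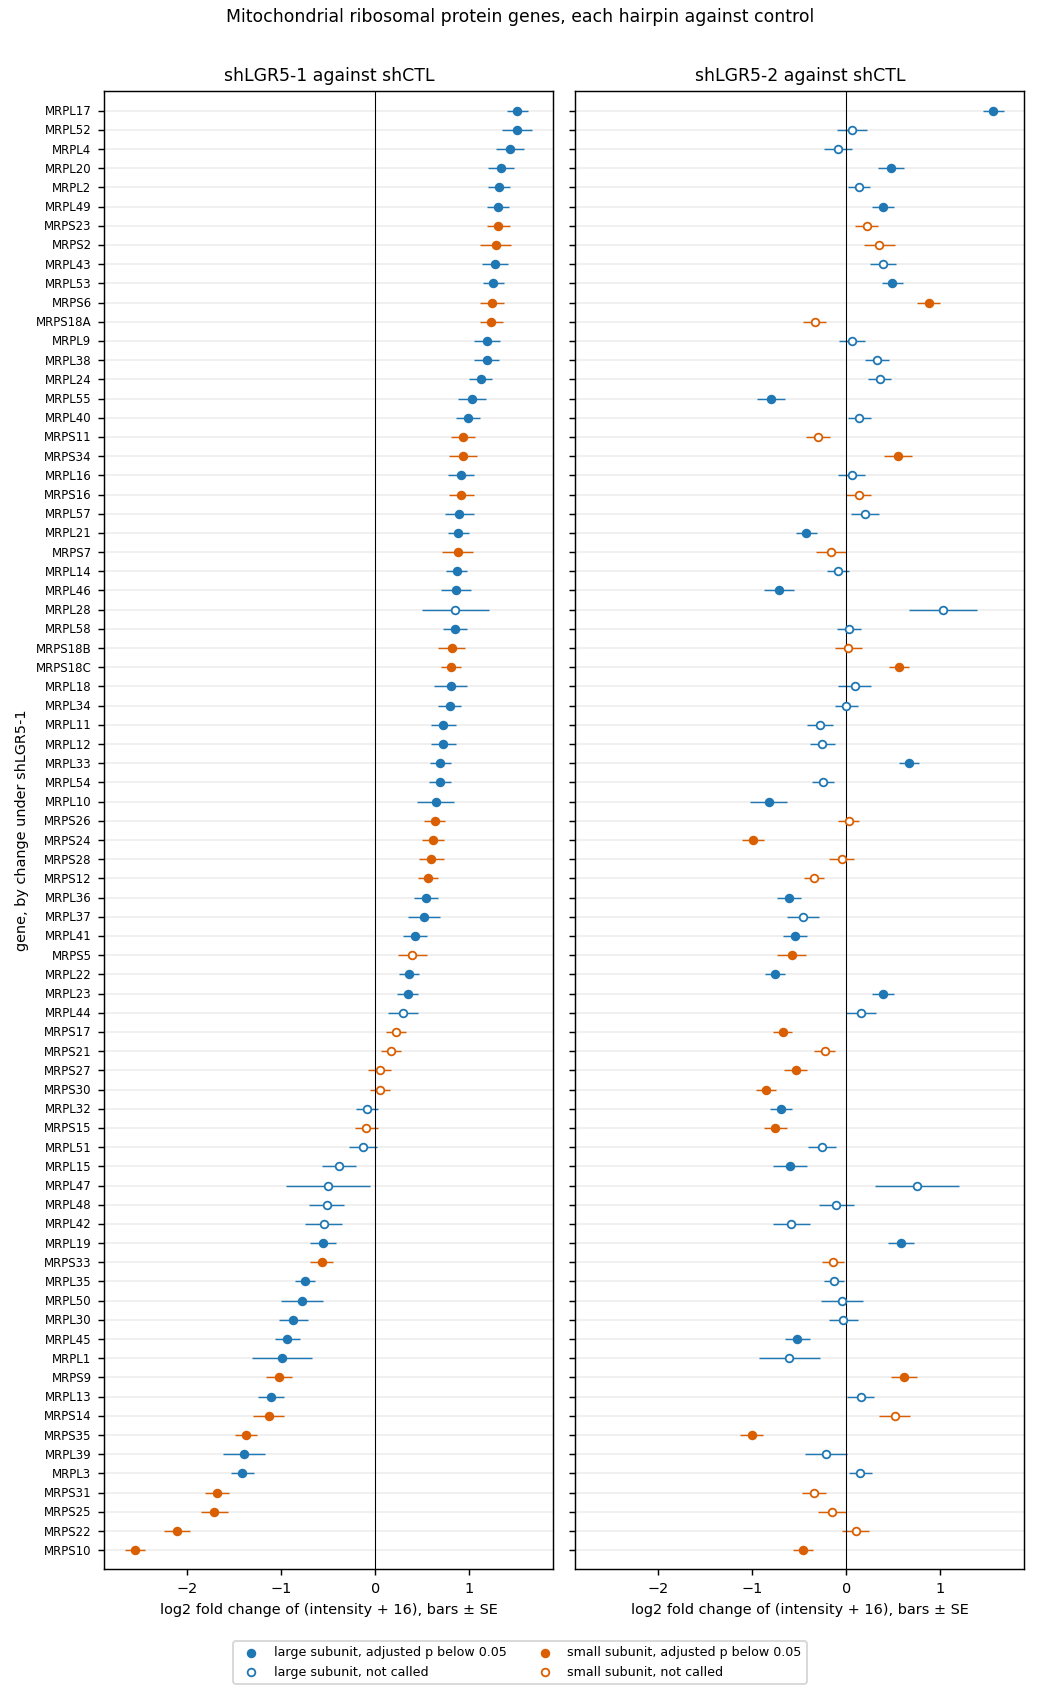
Log2 fold change of intensity + 16 (x axis) for each of the 76 mitochondrial ribosomal protein genes (y axis, ordered by shLGR5-1), for shLGR5-1 against shCTL on the left and shLGR5-2 against shCTL on the right. Bars are ± SE; filled points are called at an adjusted p below 0.05; blue is the large and orange the small subunit. With shLGR5-1 the values run from -2.55 for MRPS10 to 1.51 for MRPL17, while with shLGR5-2 47 of the 76 genes are not called.

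The largest rises were in the large subunit. MRPL17, a protein beside the exit of the nascent chain, had 5286.8 and 5073.6 under shLGR5-1, 5182.6 and 5567.4 under shLGR5-2, and 1766.1 and 1850.6 in shCTL. Both hairpin lines lay above both control arrays and overlapped each other. The log2 fold change was 1.51 ± 0.11 for shLGR5-1 (SE, n = 2 arrays a group; limma adjusted p = 0.000372) and 1.56 ± 0.11 for shLGR5-2 (adjusted p = 0.000651), and this is the only member that rose at least 2-fold with shLGR5-2.

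MRPL52, a large-subunit protein with no bacterial counterpart, had 998.9 and 820.7 under shLGR5-1, 341.8 and 302.9 under shLGR5-2, and 332.3 and 287 in shCTL. MRPL4, whose bacterial counterpart lines the exit tunnel, had 1636.5 and 1635.7 under shLGR5-1, 498.3 and 627.9 under shLGR5-2, and 614.5 and 579.2 in shCTL. In both genes the shLGR5-1 arrays stood alone and the other 4 overlapped. Their rises under shLGR5-1 were 1.504 ± 0.16 for MRPL52 (limma adjusted p = 0.000911) and 1.43 ± 0.15 for MRPL4 (adjusted p = 0.000857), while under shLGR5-2 the values were 0.06 and -0.09. The other rises among the 8 largest ran from 1.28 to 1.33 and belonged to MRPL20, MRPL2 (a core protein around the catalytic centre in bacteria), MRPL49, MRPS23 and MRPS2.

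The falls under shLGR5-1 were led by the small subunit. MRPS10, a protein of the small subunit's head, had 332.1 and 321.9 under shLGR5-1, 1467.5 and 1420.7 under shLGR5-2, and 2038.9 and 1958.2 in shCTL. MRPS22, a mitochondria-specific protein in which inherited mutations cause respiratory chain deficiency, had 668.8 and 785.6 under shLGR5-1, 3187 and 3603.6 under shLGR5-2, and 3093.4 and 3237.2 in shCTL. For both genes the shLGR5-1 arrays were far below the other 4. MRPS10 fell 5.87-fold (log2 -2.55 ± 0.11, limma adjusted p = 0.000149) and MRPS22 fell 4.29-fold (log2 -2.10 ± 0.14, adjusted p = 0.000285). With shLGR5-2, MRPS10 fell 1.38-fold (adjusted p = 0.0215) and MRPS22 was at 0.10 (adjusted p = 0.599).

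MRPS31, another head protein, had 290.2 and 336.1 under shLGR5-1, 829.4 and 801.1 under shLGR5-2, and 1091.9 and 985.5 in shCTL, a log2 fold change of -1.68 ± 0.13 under shLGR5-1 (limma adjusted p = 0.000407). MRPS25 was dim, with 36.7 and 36.1 under shLGR5-1, 150.8 and 126.4 under shLGR5-2, and 169.5 and 142 in shCTL, and fell by 1.71 under shLGR5-1 (adjusted p = 0.000515). In the large subunit the furthest falls were MRPL3 and MRPL39. MRPL3, whose bacterial counterpart reaches towards the catalytic centre, had 2526.6 and 2840.1 under shLGR5-1, 8236.2 and 7646.5 under shLGR5-2, and 7321.4 and 6995.5 in shCTL, and its log2 fold change under shLGR5-1 was -1.41 ± 0.12 (adjusted p = 0.000539). MRPL39 was at -1.39 ± 0.22 (adjusted p = 0.00343).

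**Figure D2:**
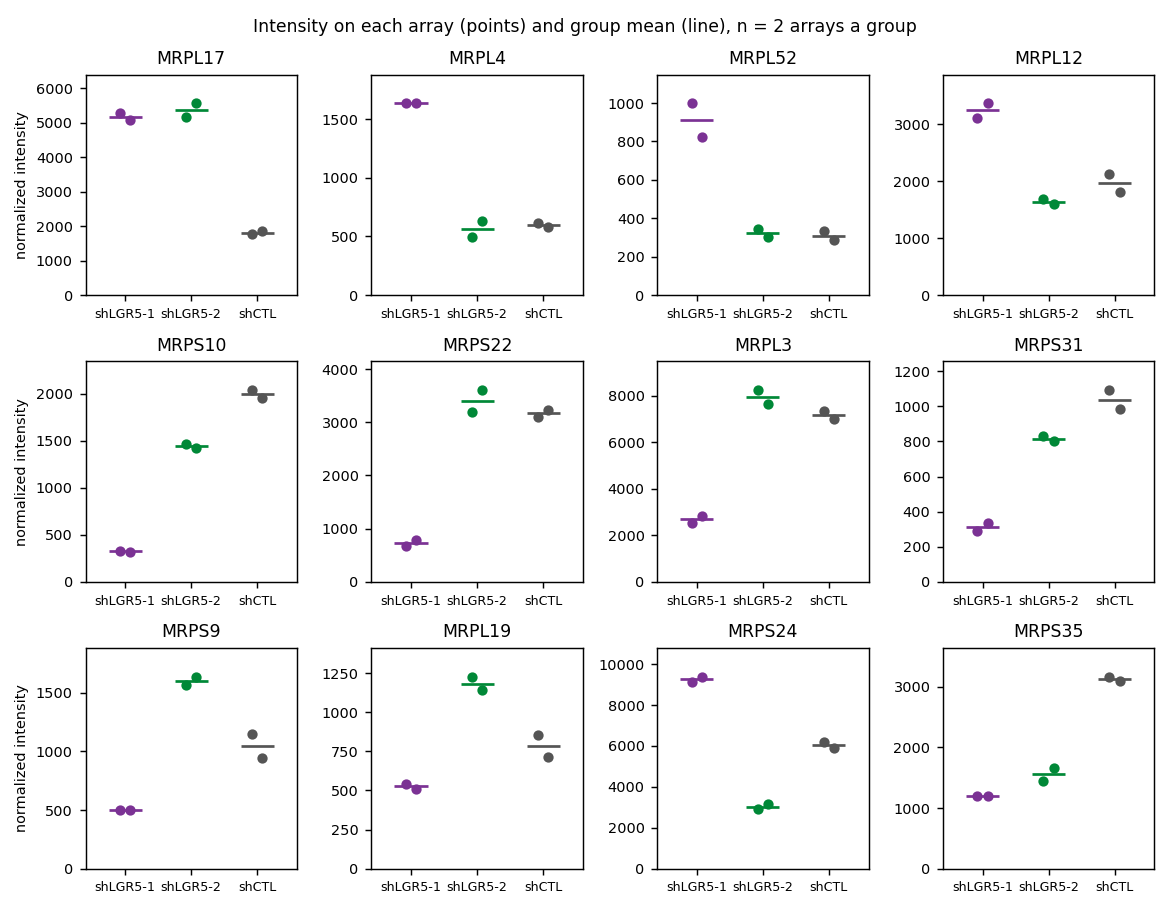
Normalized intensity (y axis, linear, from 0) of 12 mitochondrial ribosomal protein genes on each array (points) with the mean of the 2 arrays (line), for shLGR5-1, shLGR5-2 and shCTL from left to right. MRPL17 is high with both hairpins, MRPL4 and MRPL52 only in the shLGR5-1 arrays, MRPS10 and MRPS22 are lowest in the shLGR5-1 arrays, and MRPS9 and MRPL19 lie below shCTL with shLGR5-1 and above it with shLGR5-2.

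With shLGR5-2 fewer members were called and falls outnumbered rises. Of the 76 genes, 11 rose, a share of 14.5% against 21.6% of all genes tested, and 18 fell, a share of 23.7% against 22.6% of all genes. The median log2 fold change was -0.07 over the members and -0.00282 over all genes. These counts rested on each shLGR5-2 and shCTL array: without shLGR5-2 replicate 1 they were 6 and 11, without its replicate 2 they were 4 and 9, without shCTL replicate 1 they were 5 and 6, and without shCTL replicate 2 they were 3 and 9. The shares of all genes fell too when one of these arrays was left out, to between 12.7% and 15.6% higher and between 13.3% and 17.4% lower. Without either shLGR5-1 array the members' counts were 9 and 20. With the trend of length and chromosome removed, 12 members were higher and 9 lower, where 23.7% of all genes were higher and 19.7% lower. The shLGR5-2 arrays lay above both shCTL arrays for 23 members, below both for 33 and overlapped them for 20, while over all genes they lay above for 38.9% and below for 39.3%.

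After MRPL17 the largest rise with shLGR5-2 was in MRPS6, a small-subunit protein of bacterial descent, which had 6583.7 and 6530.7 under shLGR5-1, 5307.9 and 4868.9 under shLGR5-2, and 2942.9 and 2603.4 in shCTL. It was above the control on all 4 hairpin arrays, by 1.24 ± 0.12 under shLGR5-1 (limma adjusted p = 0.000777) and 0.87 ± 0.12 under shLGR5-2 (adjusted p = 0.00489). MRPL33, MRPS9, MRPL19, MRPS18C, MRPS34 and MRPL53 followed under shLGR5-2, from 0.67 down to 0.49.

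The largest falls with shLGR5-2 were in the small subunit. MRPS35, a head protein, had 1196.6 and 1201 under shLGR5-1, 1450.7 and 1659.1 under shLGR5-2, and 3158.6 and 3093.4 in shCTL. It fell in both lines, with a log2 fold change of -1.37 under shLGR5-1 (limma adjusted p = 0.00055) and -1.003 under shLGR5-2 (adjusted p = 0.0029). MRPS24, related to the bacterial protein at the entry of the messenger channel, had 9134.3 and 9369.7 under shLGR5-1, 2902.9 and 3174.7 under shLGR5-2, and 6197 and 5886.5 in shCTL. Its groups did not overlap and stood in opposite directions from the control, at 0.61 ± 0.11 under shLGR5-1 (adjusted p = 0.0058) and -0.99 ± 0.11 under shLGR5-2 (adjusted p = 0.0026). MRPS30, MRPL10, MRPL55, MRPL22, MRPS15 and MRPL46 followed under shLGR5-2, from -0.85 to -0.71.

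The hairpin lines also differed from each other. In the direct comparison of shLGR5-2 against shLGR5-1, 16 members were higher (21.1%, where 33.6% of all genes were higher) and 47 were lower (61.8%, where 39.8% of all genes were lower), with 13 not called. The median log2 difference was -0.74 over the members and -0.18 over all genes. With the length and chromosome trend removed these counts were 20 and 29, where 32.2% of all genes were higher and 36.8% lower, with medians of -0.25 and -0.12. The shLGR5-2 arrays lay above both shLGR5-1 arrays for 18 members, below both for 51 and overlapped them for 7, while over all genes they lay above for 39.2% and below for 47.7%. The comparisons with shCTL share its 2 arrays, so each line's own values are set side by side here and no agreement is drawn from them.

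The commonest pattern, in 28 genes, was a rise under shLGR5-1, no call under shLGR5-2 and a lower level in shLGR5-2 than in shLGR5-1. A further 11 genes fell under shLGR5-1, were not called under shLGR5-2 and were higher in shLGR5-2 than in shLGR5-1. Calls were opposite in 10 genes: MRPL10, MRPL21, MRPL22, MRPL36, MRPL41, MRPL46, MRPL55 and MRPS24 rose under shLGR5-1 and fell under shLGR5-2, and MRPL19 and MRPS9 did the reverse. Calls were alike in 12 genes. MRPL17, MRPL20, MRPL23, MRPL33, MRPL49, MRPL53, MRPS6, MRPS18C and MRPS34 rose with both hairpins, and MRPL45, MRPS10 and MRPS35 fell with both. These calls are those of the brightest probe, and the further probes of MRPL33 and MRPL45 were called in neither line. The 6 genes called in no comparison were MRPL28, MRPL42, MRPL44, MRPL47, MRPL48 and MRPL51. How often the same patterns occur over all genes tested was not counted, so no excess among the members is drawn from them. The difference between the hairpin lines is the gap between their fold changes against shCTL, so its calls are not independent of those calls.

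Among the genes called in opposite directions, MRPL55 differed most. It had 485.7 and 544.9 under shLGR5-2 and 2034.7 and 1711.7 under shLGR5-1, with 965.7 and 856.9 in shCTL between them, a log2 difference of -1.83 ± 0.15 between the hairpin lines (limma adjusted p = 0.000366). MRPL46 had 1007.5 and 1283.3 under shLGR5-2 and 3576.7 and 3231.6 under shLGR5-1, with 1835.9 and 1910.4 in shCTL, a difference of -1.57 ± 0.16 (adjusted p = 0.000691). Its fall under shLGR5-2 against shCTL was lost in 4 of 16 alternatives (adjusted p up to 0.891, with the length and chromosome trend removed). Both proteins are placed in the central protuberance, the top of the large subunit. In the reverse direction, MRPS9 had 1569.5 and 1634.5 under shLGR5-2 and 502.7 and 505.1 under shLGR5-1, with 1150.6 and 943.1 in shCTL, a difference of 1.638 ± 0.14 (adjusted p = 0.0004). MRPL19 had 1224.3 and 1140 under shLGR5-2 and 542.6 and 511.7 under shLGR5-1, with 856.5 and 713.6 in shCTL, a difference of 1.14 ± 0.14 (adjusted p = 0.00123).

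The subunits were then set against each other. Under shLGR5-1 the large subunit had 31 genes higher (64.6%), 9 lower (18.8%) and 8 not called of 48, with a median of 0.71. The small subunit had 14 higher (50%), 8 lower (28.6%) and 6 not called of 28, with a median of 0.48. Over all genes 40.3% were higher and 31.5% lower there. Under shLGR5-2 the large subunit had 7 higher (14.6%) and 10 lower (20.8%), with a median of -0.02. The small subunit had 4 higher (14.3%) and 8 lower (28.6%), with a median of -0.16, where 21.6% of all genes were higher and 22.6% lower. In shLGR5-2 against shLGR5-1 the large subunit had 8 higher (16.7%) and 29 lower (60.4%), with a median of -0.78. The small subunit had 8 higher (28.6%) and 18 lower (64.3%), with a median of -0.62, where 33.6% of all genes were higher and 39.8% lower. The medians thus differed by 0.23, 0.14 and -0.15 (large minus small) in the 3 comparisons. On single arrays the difference of the subunits' median levels had an SD of 0.12 between replicates. That is another measure, and not the spread of a difference of median fold changes. Under shLGR5-1 the difference of median fold changes came to 0.12 without shCTL replicate 2 and 0.33 without shLGR5-1 replicate 1. It was 0.11 with the mean of all kept probes of a gene, so its size rested on single arrays and on the choice of probe. No test was made on the medians. Placing MRPS30 and MRPS18A, which sit in the large subunit despite their symbols, with the large subunit gave medians of 0.71 and 0.48 under shLGR5-1.

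Within the small subunit, the 7 listed genes of its head were all called under shLGR5-1: MRPS10, MRPS31, MRPS35, MRPS14, MRPS9 and MRPS33 fell and MRPS7 rose, with a median of -1.13, where 31.5% of all genes fell. The list does not hold 2 other head proteins, MRPS24, which rose by 0.61, and DAP3, which fell by 0.52. MRPS7, which in bacteria starts assembly of the head, had 2330.4 and 2075 under shLGR5-1, 938.3 and 1204.5 under shLGR5-2, and 1182.6 and 1203.4 in shCTL, a log2 fold change of 0.87 ± 0.16 under shLGR5-1 (limma adjusted p = 0.00572). MRPS14 was the dimmest member, with 19 and 17.4 under shLGR5-1, just above the threshold, 81 and 102.3 under shLGR5-2, and 66.9 and 51.8 in shCTL. With shLGR5-2 the head had 1 gene higher and 2 lower, with a median of -0.16. With the trend of length and chromosome removed, 5 of the 7 were lower under shLGR5-1, none was higher, and the median was -0.60.

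MRPS12, the small-subunit protein at the decoding site, was bright, with 10626.1 and 11223.2 under shLGR5-1, 5880.2 and 5800.8 under shLGR5-2, and 7333.7 and 7438.7 in shCTL. It was at 0.56 ± 0.11 under shLGR5-1 (limma adjusted p = 0.00619) and at -0.34 ± 0.11 under shLGR5-2 (adjusted p = 0.0542). Under shLGR5-1 its sign turned to -0.65 (adjusted p = 0.00557) with the length and chromosome trend removed. The MRPS18 genes, which are paralogs of 1 bacterial protein, all rose under shLGR5-1, by 1.23 for MRPS18A, 0.81 for MRPS18B and 0.81 for MRPS18C. Under shLGR5-2 only MRPS18C was called, at 0.56 (adjusted p = 0.012), with -0.34 for MRPS18A and 0.02 for MRPS18B.

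In the large subunit the genes of the stalk, which recruits the elongation factors, had like values under shLGR5-1 with their brightest probes. MRPL12, its mobile protein, had 3117.4 and 3366.9 under shLGR5-1, 1682.9 and 1594.1 under shLGR5-2, and 2124.3 and 1807.3 in shCTL. MRPL10, MRPL11 and MRPL12 rose by 0.64, 0.72 and 0.72 under shLGR5-1. Under shLGR5-2 they were at -0.83, -0.28 and -0.26, of which only MRPL10 was called (limma adjusted p = 0.0234). The further probes of MRPL11 differed from its brightest. The brighter of them was at 0.20 under shLGR5-1, not called, and at -0.76 under shLGR5-2 (limma adjusted p over all kept probes = 0.0121). The dimmer was at 1.21 under shLGR5-1 and at -0.27 under shLGR5-2, the latter not called. With their brightest probes all 3 genes were lower in shLGR5-2 than in shLGR5-1, by log2 differences of -1.466, -1.004 and -0.977. But their values under shLGR5-1 were -0.13, -0.04 and -0.22, none called, once the length and chromosome trend was removed.

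Of the 6 genes of the central protuberance, 5 rose under shLGR5-1 and none fell, with a median of 0.92, and 2 fell under shLGR5-2, where 40.3% of all genes rose under shLGR5-1 and 22.6% fell under shLGR5-2. MRPL48 was the one not called under shLGR5-1, at -0.52. The 6 genes on the side of the exit tunnel were mixed. MRPL17, MRPL22, MRPL23 and MRPL24 rose under shLGR5-1, MRPL47 was not called, and MRPL45, which binds the inner membrane beside the exit, fell. MRPL45 had 1877.7 and 1651.1 under shLGR5-1, 2198.4 and 2514.8 under shLGR5-2, and 3486.5 and 3267.1 in shCTL. It was at -0.93 ± 0.14 under shLGR5-1 (limma adjusted p = 0.00256) and -0.52 ± 0.14 under shLGR5-2 (adjusted p = 0.0323). Its further probe was called in neither line, at -0.37 under shLGR5-1 and -0.32 under shLGR5-2. The call of MRPL45 under shLGR5-2 was lost in 6 of 16 alternatives, among them the mean of all kept probes (-0.42). MRPL23 had the smallest called rise under shLGR5-1, 0.34 ± 0.11 (adjusted p = 0.0408), and 0.39 under shLGR5-2 (adjusted p = 0.0426). Over 16 alternatives the first call was lost in 7 (adjusted p up to 0.145) and the second in 9 (up to 0.151).

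MRPL41, a mitochondria-specific protein also studied as a growth suppressor, had 5902.7 and 6420.9 under shLGR5-1, 3352.5 and 2950.7 under shLGR5-2, and 4467 and 4705.5 in shCTL. Its log2 fold change was 0.42 ± 0.13 under shLGR5-1 (limma adjusted p = 0.03), which turned to -0.25 and was not called (adjusted p = 0.18) with the length and chromosome trend removed, and -0.54 ± 0.13 under shLGR5-2 (adjusted p = 0.0227). MRPS30 had 4059.7 and 4011 under shLGR5-1, 2175.5 and 2132.4 under shLGR5-2, and 4028.6 and 3782.9 in shCTL, so only the shLGR5-2 arrays stood apart, at -0.85 ± 0.11 (adjusted p = 0.0034).

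Members were also counted by descent, with no test. Of 45 members counted with a bacterial homologue 28 rose (62.2%) and 9 fell (20%) under shLGR5-1, with a median of 0.64. Of 31 counted as mitochondria-specific 17 rose (54.8%) and 8 fell (25.8%), with a median of 0.52. Over all genes 40.3% rose and 31.5% fell under shLGR5-1. The 10 counted as mitochondria-specific in the small subunit had a median of -0.26 under shLGR5-1, with 4 higher (40%) and 5 lower (50%). The 31 included MRPS18A and MRPS18B, and the 10 included MRPS18B, although the MRPS18 genes are paralogs of the same bacterial protein. Only MRPS18C was counted with the bacterial homologues. Under shLGR5-2, 8 members counted with a bacterial homologue rose (17.8%) and 12 fell (26.7%). Of those counted as mitochondria-specific 3 rose (9.68%) and 6 fell (19.4%), where 21.6% of all genes rose and 22.6% fell.

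Other genes of the pathway were counted on lists of known factors, whose counts stand beside 40.3% of all genes higher and 31.5% lower under shLGR5-1, and 21.6% higher and 22.6% lower under shLGR5-2. Of 4 measured ribosome-associated proteins with other symbols, CHCHD1, GADD45GIP1 and OXA1L, the insertase that receives the nascent chains, rose under shLGR5-1, by 0.85, 0.71 and 0.70, and DAP3, a small-subunit protein, fell by 0.52. Under shLGR5-2, GADD45GIP1 and OXA1L fell, by 0.84 and 0.43. Of 26 factors that assemble the ribosome or modify its RNA, 14 rose and 5 fell under shLGR5-1, and 3 rose and 6 fell under shLGR5-2. FASTKD2, an RNA-binding assembly factor, fell under shLGR5-1 by 2.36, and MTG1, a GTPase of large-subunit assembly, rose by 1.78. RCC1L, another assembly factor, was at 1.33 under shLGR5-1 (adjusted p = 0.00109) and -1.27 under shLGR5-2 (adjusted p = 0.00274).

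Among translation factors falls outnumbered rises. Of 14 measured, 4 rose and 8 fell under shLGR5-1, with a median of -1.22, where 31.5% of all genes fell. With shLGR5-2 none rose and 5 fell, with a median of -0.46, where 22.6% of all genes fell. GFM1, the elongation factor that moves the ribosome along, had 51.4 and 78.6 under shLGR5-1, 823.2 and 848.8 under shLGR5-2, and 1345.1 and 1479 in shCTL. MTIF2, the initiation factor that brings the first transfer RNA, had 153.7 and 243.4 under shLGR5-1, 1928.5 and 1790.7 under shLGR5-2, and 2842.3 and 2782.4 in shCTL. The shLGR5-1 arrays were below all others in both, at -4.16 for GFM1 (limma adjusted p = 0.000162) and -3.75 for MTIF2 (adjusted p = 0.000233). TUFM and TSFM, the elongation factor that delivers transfer RNAs and its exchange factor, rose by 0.83 and 0.98. LRPPRC, which stabilises mitochondrial messenger RNAs, had 17.3 and 99.3 under shLGR5-1, 842.7 and 1014.7 under shLGR5-2, and 1080.3 and 1382 in shCTL.

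Among 17 genes that copy, transcribe or process mitochondrial DNA and RNA, 5 rose and 10 fell under shLGR5-1, with a median of -0.79, and 3 rose and 5 fell under shLGR5-2. TFAM, which packs and activates mitochondrial DNA, had 146.2 and 224 under shLGR5-1, 1021.8 and 855.2 under shLGR5-2, and 1062.2 and 857.3 in shCTL, a log2 fold change of -2.30 under shLGR5-1. POLRMT, the polymerase it works with, had 1069.3 and 1245.6 under shLGR5-1, 412.1 and 425.6 under shLGR5-2, and 441.6 and 507.8 in shCTL, a log2 fold change of 1.26 under shLGR5-1. Partners in 1 process thus stood on opposite sides of the control in that line. The trend with gene length and chromosome was not removed from these values, nor from those of the other lists of pathway genes.

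Of 9 measured regulators of nuclear genes for mitochondrial proteins, 3 rose and 4 fell under shLGR5-1, and 2 rose and 3 fell under shLGR5-2. GABPA, an ETS factor, was below the threshold under shLGR5-1, at least 6.63-fold lower than in shCTL (limma adjusted p = 0.000169). "At least" sets the dim group at the threshold. NRF1 was below it in shCTL and at least 2.66-fold higher under shLGR5-1 (adjusted p = 0.00794). YY1 had 1184 and 1180.2 under shLGR5-1, 3516.3 and 3466.1 under shLGR5-2, and 3428.2 and 3307.6 in shCTL, at -1.498 under shLGR5-1 and 0.05 under shLGR5-2. MYC had 5307.9 and 5376.2 under shLGR5-1, 2395.4 and 2135 under shLGR5-2, and 4388.9 and 5155.9 in shCTL, at 0.17 under shLGR5-1 (adjusted p = 0.317) and -1.07 under shLGR5-2 (adjusted p = 0.00359).

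The 2 gene groups most like the mitochondrial ribosome are the subunits of oxidative phosphorylation, some of which are its own products, and the proteins of the cytosolic ribosome. The subunits counted here are all encoded by nuclear genes, so none of those products is among them. Of 74 oxidative phosphorylation subunits 41 rose and 11 fell under shLGR5-1, with a median of 0.41, and 1 rose and 32 fell under shLGR5-2, with a median of -0.38. Of 70 cytosolic ribosomal proteins 11 rose and 10 fell under shLGR5-1, with a median of -0.01, and 4 rose and 11 fell under shLGR5-2, with a median of -0.05. Over all genes 40.3% rose and 31.5% fell under shLGR5-1, and 21.6% rose and 22.6% fell under shLGR5-2. The differences between these lists were not tested.

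**Figure D3:**
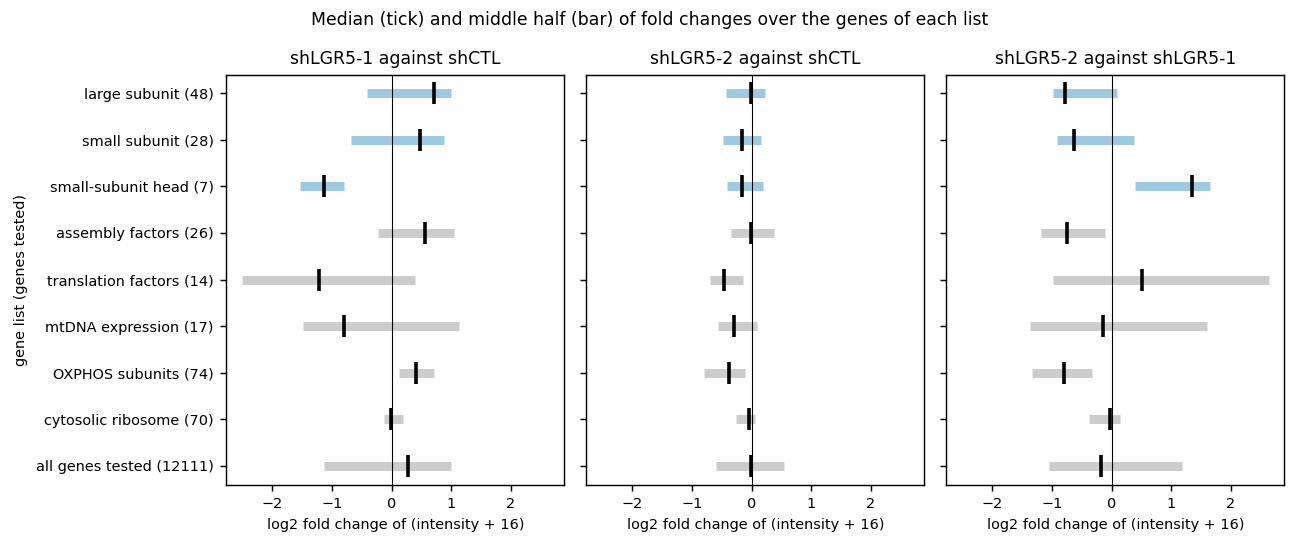
Median (tick) and the range between the lower and upper quartile (bar) of log2 fold changes of intensity + 16 (x axis) over the genes of each list (y axis, number of genes tested in brackets), for shLGR5-1 against shCTL, shLGR5-2 against shCTL and shLGR5-2 against shLGR5-1. Blue bars are mitochondrial ribosomal protein genes and grey bars other lists; under shLGR5-1 the head of the small subunit (median -1.13) and the translation factors (-1.22) lie left of 0 and the large subunit (0.71) right of it.

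The genomic span of a gene, from its first to its last annotated base, went with its change under shLGR5-1. Over the 76 members Spearman's rank correlation between span and log2 fold change was -0.52 under shLGR5-1 and -0.08 under shLGR5-2, and over 12104 genes with a known span it was -0.33 and 0.011. These are correlations across genes on the same 6 arrays, given as a description. The 26 shortest members, of 0.677 to 5.41 kb, had 23 rises and no fall under shLGR5-1, with a median of 0.90. The 25 longest, of 15.1 to 112 kb, had 7 rises and 11 falls, with a median of -0.52, and the 25 between them had 15 rises and 6 falls, with a median of 0.79. Over all genes tested, of any span, 40.3% rose and 31.5% fell under shLGR5-1. The shares among all genes of like span were not counted, so nothing particular to the members is drawn from these counts.

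Members were short genes, with a median span of 8.64 kb against 26.9 kb over all genes. MRPS10 and MRPS22, which fell most, span 11.1 and 13.2 kb, and MRPS6, which rose, spans 69.5 kb, so single genes departed from the trend. The part of span in these changes was not tested beyond removing its trend together with that of the chromosome, after which 44 of the 62 calls under shLGR5-1 were kept and 3 of the 62 were called with the opposite sign.

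**Figure D4:**
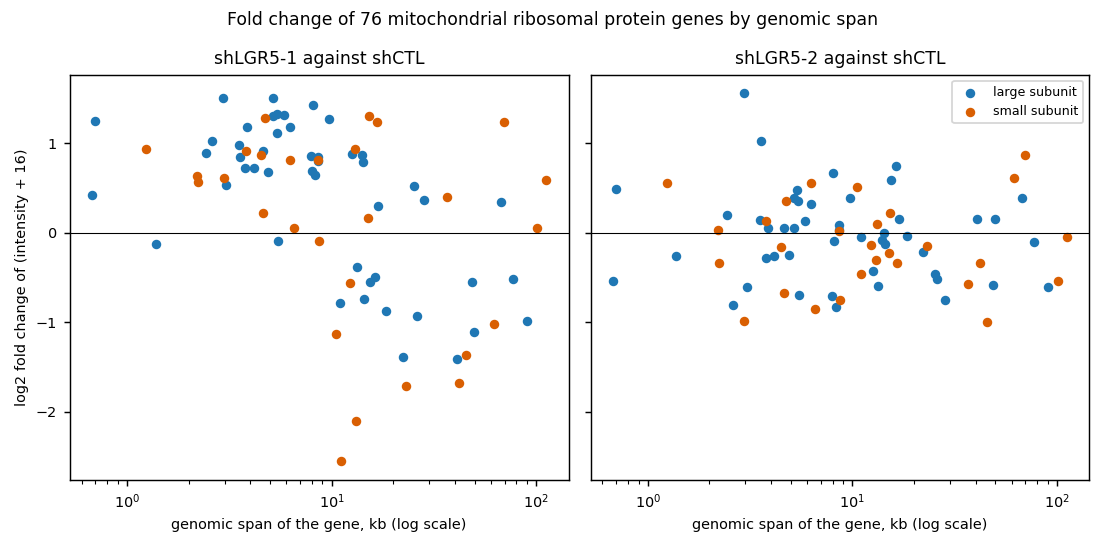
Log2 fold change of intensity + 16 (y axis) against genomic span in kb (x axis, log scale) for the 76 mitochondrial ribosomal protein genes, for shLGR5-1 against shCTL on the left and shLGR5-2 against shCTL on the right; blue is the large and orange the small subunit. Under shLGR5-1 most genes shorter than 5.41 kb lie above 0 and the longer ones spread to both sides, and under shLGR5-2 the points lie around 0 at every length.

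By chromosome, the 4 members on chromosome 3 included 3 falls and no rise under shLGR5-1, with a median of -1.56 where all 672 genes tested on that chromosome had 0.000561. Under shLGR5-2 all 4 members on chromosome 5 fell, with a median of -0.68 against -0.38 over all its genes, and 3 of the 4 on chromosome 7 fell, with a median of -0.69 against -0.33. The array cannot tell a change in gene copies from one in transcription, and copy number was not analysed here.

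The words searched in the promoters are shared by many members. A window was found for 68 of the 76 genes, and the ETS word CCGGAAG occurred in 28 of them (41.2%), where 10.3% of 35116 promoter windows of the same length hold it. The YY1 word GATGGCGG occurred in 13 (19.1% against 2.34%), the NRF1 word CGCATGCG in 3 (4.41% against 2.02%) and the E-box CACGTG in 6 (8.82% against 7.26%). Both strands were searched, and matches to different words can share at most 1 base. All members with the YY1 word except MRPL32, MRPL36 and MRPL52 hold it after the start of the gene, between positions 259 and 288. Whether the ATG within the word is the start codon there was not checked. The 35116 windows were not limited to the genes tested, so the higher share among members may also reflect which windows were compared.

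Under shLGR5-1 the ETS word stood in 17 of 40 members that rose, 6 of 15 that fell and 5 of 13 not called. Under shLGR5-2 the YY1 word stood in 7 of 15 members that fell, in none of 10 that rose and in 6 of 43 not called, while the ETS word stood in 1 of 15 that fell, 5 of 10 that rose and 22 of 43 not called. The genes with the YY1 word that fell under shLGR5-2 were MRPL22, MRPL32, MRPL36, MRPL46, MRPS10, MRPS24 and MRPS30. Of these, all but MRPL32 and MRPL36 hold the word after the start of the gene. These words were searched with the fold changes known and their counts carry no test, and a match shows only that the letters are present.

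The 24 members with several kept probes allow a check within the gene. Under shLGR5-1 all probes of a gene had the same sign in 24 of the 24, under shLGR5-2 in 19 and between the hairpin lines in 22, and no gene had probes called in opposite directions. The probes of MRPL35 differed most: the brightest fell by 0.74 under shLGR5-1, and the others fell by 2.95 and 3.29. The second probe of MRPL42 was at -2.03 under shLGR5-1, where the brightest, at -0.55, was not called. For MRPS21, at -0.23 with its brightest probe under shLGR5-2, the second probe was at 0.94. The second probe of MRPL33 was at 0.17 under shLGR5-1 and -0.02 under shLGR5-2, called in neither, where the brightest rose in both. With the mean of all kept probes the rise of MRPL33 under shLGR5-2 lost its call (0.32, limma adjusted p = 0.0769). A further 49 members were read with a single probe, for which no such check exists.

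**Figure D5:**
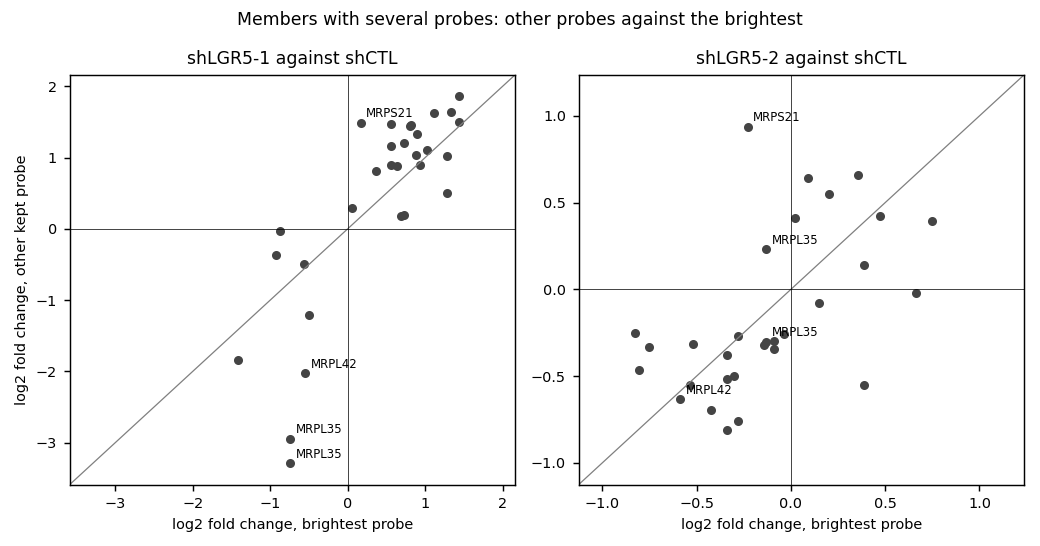
Log2 fold change of each further kept probe (y axis) against that of the brightest probe of the same gene (x axis) for the 24 mitochondrial ribosomal protein genes with several kept probes, for shLGR5-1 against shCTL on the left and shLGR5-2 against shCTL on the right; the diagonal marks equal values. Under shLGR5-1 the points lie on the same side of 0 as the brightest probe, with MRPL35 furthest from the diagonal. Under shLGR5-2 MRPL3, MRPL33, MRPL35, MRPL43 and MRPS21 have probes on both sides of 0.

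Replicate arrays were close over the members, with an SD of their log2 differences of 0.253 in shLGR5-1, 0.193 in shLGR5-2 and 0.168 in shCTL. The SE of a fold change over the members ran from 0.104 to 0.447, with a median of 0.133 and the highest value for MRPL47, whose shLGR5-1 arrays read 55.5 and 167.2. The smallest called rise was 1.27-fold and the smallest called fall 1.47-fold under shLGR5-1, and 1.31-fold and 1.34-fold under shLGR5-2.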

How the data were processed

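RNA of LoVo cells was read on 6 Illumina bead arrays, 2 each for shLGR5-1, shLGR5-2 and shCTL, grouped by their titles. The submitters' processing notes name GenomeStudio, the software for these arrays, without a version. The authors deposited a linear intensity for each of 47323 probes on each array; the values show that it was already background-subtracted (30.5% lie below 0 on each array) and quantile-normalized (values of equal rank differ between arrays by 0.7 or less). The method of background subtraction is not stated in the labels. Another 12 columns matched no sample's labels and were not used.

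Values were floored at 0, 16 was added and log2 taken, which understates changes of dim genes. The negative values gave a noise SD of 10 (their root mean square), and the 21792 probes above 16.5 on both arrays of any group were kept. Symbols came from the platform annotation, updated through RefSeq (GRCh38.p14), which also gave spans, chromosomes and promoters; the build behind the probes is not stated in the labels. The brightest kept probe stood for each of 12111 genes. A single fit by group over all 6 arrays (lmFit and eBayes of limma 3.58.1, run in R 4.3.3) left 3 residual degrees of freedom beside 2.01 prior ones, with 3 two-sided contrasts and Benjamini-Hochberg adjustment over all genes. The script was tested on simulated data.

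The members, gene lists and named genes' rule were chosen with earlier results of these data known. The rule names, per contrast, the 8 largest rises and 8 largest falls among called members whose arrays do not overlap, and members with a fixed role (MRPL10, MRPL11, MRPL12, MRPS12, MRPL45, MRPL23, the MRPS18 genes, MRPS30, MRPL41); other genes were named after their values were seen. Alternatives changed the offset, the filter, the probe summary, the centring, the variance trend and the replicate block, removed a trend in span and chromosome fitted over all genes, or left out each array in turn. Same-numbered replicates were checked: their deviations from the group means correlated at 0.0021 to 0.0168, so the numbers do not pair the samples. No file or label gave a slide or scan date. The number of arrays limits the precision.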

Additional observations from a re-analysis of the deposited data

Results flagged for a closer look

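The hairpin lines differed from each other in most mitochondrial ribosomal protein genes. In the test of that difference itself, 63 of the 76 were called in shLGR5-2 against shLGR5-1 (limma adjusted p below 0.05), 16 higher and 47 lower, where 33.6% of all genes were higher and 39.8% lower.

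Of the named genes, 9 were called in opposite directions against shCTL and were also called in the direct comparison. The direct difference is the gap between those 2 fold changes in the same fit. Its call thus followed from theirs and adds no support. MRPS9 and MRPL19 were higher in shLGR5-2 than in shLGR5-1, with log2 differences of 1.638 and 1.141. MRPL55 was lower in shLGR5-2 than in shLGR5-1 with a difference of -1.83, MRPS24 with -1.60, MRPL46 with -1.57 and MRPL10 with -1.47. The remaining differences were -1.31 for MRPL21, -1.12 for MRPL22 and -0.97 for MRPL41. In each of these genes both arrays of one hairpin line lay above both shCTL arrays and both arrays of the other lay below them. Over 16 alternatives the rise of MRPL10 under shLGR5-1 lost its call in 5 and turned in 1, as did that of MRPL41. Falls under shLGR5-2 lost the call in 3 for MRPL10, 4 for MRPL41, 4 for MRPL46, 2 for MRPL55, 1 for MRPL22 and 0 for MRPS24. The rises of MRPL19 and MRPS9 under shLGR5-2 lost it in 3 each.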

How the results depend on the processing

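All turns of sign counted for the named genes came with removal of the trend of span and chromosome. The counts under shLGR5-2 did not hold. With values floored at 1 and no offset, 7 members rose under shLGR5-2. Leaving out 1 array in turn gave 3 to 9 rises and 6 to 20 falls under shLGR5-2. Removing the trend of span and chromosome left 9 falls under shLGR5-2 and 29 lower members in shLGR5-2 against shLGR5-1, and the large-minus-small difference of medians in that comparison moved to -0.0293. Under the same removal the sign turned under shLGR5-1 for MRPL10 (-0.13), MRPL11 (-0.0405), MRPL12 (-0.22), MRPL41 (-0.25) and MRPS12 (-0.65), and in shLGR5-2 against shLGR5-1 for MRPL23 (-0.57) and MRPS12 (0.34). The cause was not tested. LGR5 under shLGR5-2 lost its call with the floor of 1 (-1.593, limma adjusted p = 0.287), without the filter on dim probes (-0.9864, adjusted p = 0.0553) and when any shLGR5-2 or shCTL array was left out (-1.139 to -0.8341 over the arrays left out). With the replicate block 43 members rose and 16 fell under shLGR5-1, 9 rose and 16 fell under shLGR5-2, and 13 were higher and 46 lower in shLGR5-2 against shLGR5-1. Under shLGR5-1, 409 of the named genes' values kept direction and call, 17 lost the call and 5 turned. Under shLGR5-2 327 kept both, 48 lost the call and 9 gained it, and between the hairpin lines 378 kept both, 14 lost it, 5 gained it and 2 turned. Many of these directions could not turn. Changing the variance trend, the replicate block or the filter leaves a member's fold change as it was. So does leaving out an array of the line outside the comparison. Values called in neither setting were counted as kept whatever their sign. Where an array was left out, the lone array of its group was assumed to vary like the other groups. Dim probes limit MRPS14, MRPS25 and LGR5.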
